A study of Mus musculus with 6 samples.

Results

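AP-1 is a family of transcription factors that bind DNA as pairs, and 8 of its genes were described here: Fos, Fosb, Fosl1, Fosl2, Jun, Junb, Jund and Atf3. They were taken by symbol from a table of 55335 genes, and 7 of the 8 passed the expression filter, as did 12860 genes in all. Polyadenylated RNA of mouse sciatic nerve lysate was sequenced at postnatal day 14. The icKO group (3 libraries) was RhoAfl/fl ChATCreERT2+, homozygous for a floxed RhoA allele and carrying a Cre recombinase that a drug activates and that the choline acetyltransferase gene drives, hence aimed at cholinergic neurons such as motoneurons. The flox group (3 libraries) was RhoAfl/fl without Cre, so every animal carried the floxed allele. Neither the induction schedule nor the treatment of flox mice with the drug is stated in the labels. It is also not stated which libraries share an animal, so the p-values cover no more than the spread among the 6 libraries, which may be technical.

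Members of the Fos family (Fos, Fosb, Fosl1, Fosl2) pair poorly among themselves and bind DNA with a Jun partner, while Jun, Junb and Jund can also pair with each other. Atf3 belongs to a neighbouring branch that pairs with Jun proteins. Fos, Fosb, Jun, Junb and Atf3 are immediate early genes, whose transcripts rise within minutes of growth factors, stress or handling of a tissue and decay as fast, whereas Jund is transcribed steadily in most cells. In the peripheral nerve c-Jun is kept low in myelinating Schwann cells, and after injury it rises with Atf3 and drives their change to repair cells.

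In icKO nerves 5 of the 8 members rose, Fosl2, Junb, Fos, Fosb and Jund, with mean levels 1.5 to 6.06 times those of flox nerves. None fell, Jun and Atf3 did not pass, and Fosl1 was at trace level in every library. Of all tested genes 20.8% rose, 22.1% fell and 42.9% passed in either direction (limma, Benjamini-Hochberg adjusted p under 0.05), so the genotypes differed in much of the transcriptome. The rises were of different kinds. Fosl2 was at a like level in the 3 icKO libraries, while Fos, Fosb and Junb spread widely among them and were highest in icKO 3. Fosb reached the filter of a mean of 1 FPKM only through the icKO group. When single libraries were left out 2 to 5 members passed, and Fosl2 and Junb were the pair that passed in all 6 such fits.

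**Figure D1:**
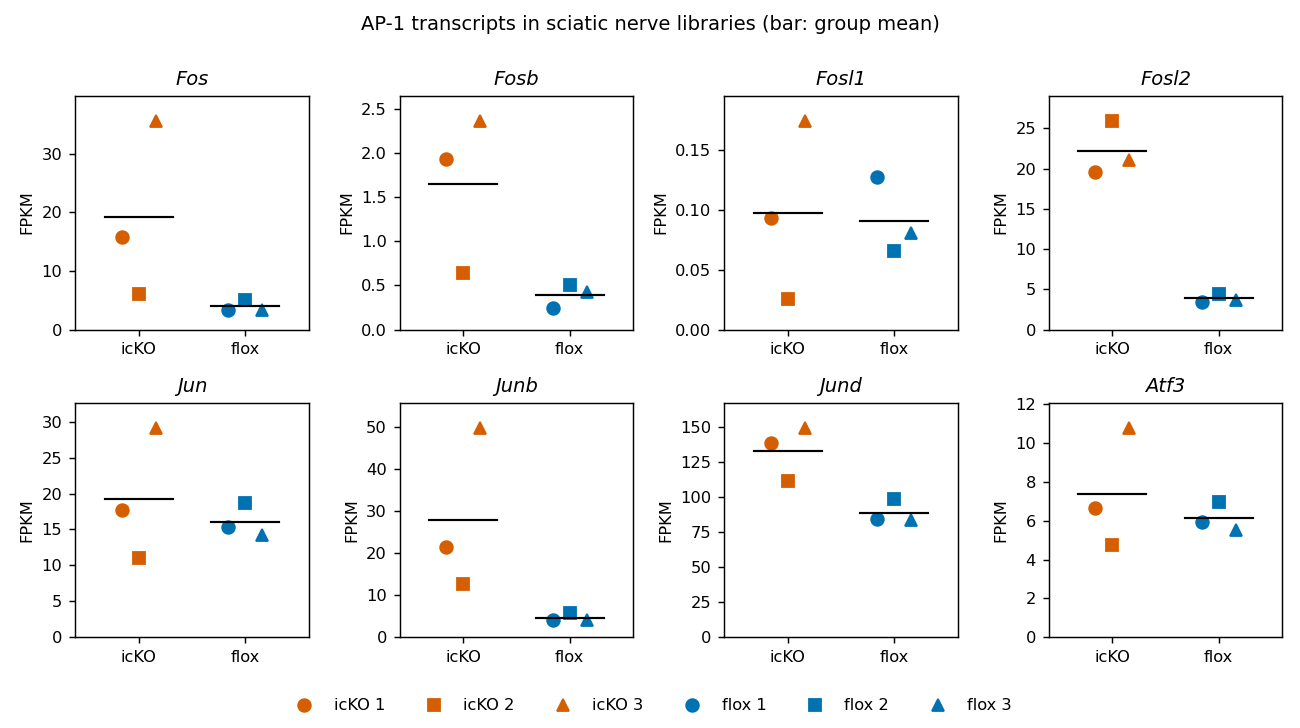
Level of each AP-1 gene in FPKM (vertical axes, each from 0 and scaled to its gene) in the 3 icKO and the 3 flox libraries, with 1 symbol per library and a bar at the group mean. The icKO points lie above every flox point for Fos, Fosb, Fosl2, Junb and Jund and overlap them for Jun, Atf3 and Fosl1, and icKO 2 is the lowest icKO library of every member but Fosl2, of which it is the highest.

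The 250 bases before the start of transcription are shown for members with different behaviour, namely Fos and Junb, which rose most in icKO 3, Fosl2, which rose evenly, and Jun and Atf3, whose groups overlapped. They come from RefSeq on build GRCm38.p6, in which 7 of the 8 members were matched (Fosl1 was not), and each is written 5′ to 3′ along its gene. Capitals mark the letters TGACGT (the core of a cyclic AMP response element), TGACATCA (a variant AP-1 element), TGACTCA (the classic AP-1 element), the CArG box bound by SRF, all searched on both strands, and TATAAA on the gene's strand.
Fos, chr12:85473640-85473889, plus strand: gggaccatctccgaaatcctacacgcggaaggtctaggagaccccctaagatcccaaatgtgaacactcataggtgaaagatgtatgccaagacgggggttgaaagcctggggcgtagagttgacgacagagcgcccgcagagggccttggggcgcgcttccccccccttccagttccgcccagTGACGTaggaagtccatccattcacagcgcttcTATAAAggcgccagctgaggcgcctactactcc
Junb, chr8:84978749-84978998, minus strand: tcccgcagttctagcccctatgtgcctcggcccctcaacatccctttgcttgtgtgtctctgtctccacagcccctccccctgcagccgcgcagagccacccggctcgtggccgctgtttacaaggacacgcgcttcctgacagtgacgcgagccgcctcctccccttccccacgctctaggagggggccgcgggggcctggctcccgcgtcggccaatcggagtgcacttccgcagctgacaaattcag
Fosl2, chr5:32136222-32136471, plus strand: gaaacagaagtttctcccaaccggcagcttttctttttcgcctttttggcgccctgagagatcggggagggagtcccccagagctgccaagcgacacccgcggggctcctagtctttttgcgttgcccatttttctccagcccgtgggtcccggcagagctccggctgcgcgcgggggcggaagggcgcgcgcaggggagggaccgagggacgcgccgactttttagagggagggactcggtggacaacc
Jun, chr4:95052223-95052472, minus strand: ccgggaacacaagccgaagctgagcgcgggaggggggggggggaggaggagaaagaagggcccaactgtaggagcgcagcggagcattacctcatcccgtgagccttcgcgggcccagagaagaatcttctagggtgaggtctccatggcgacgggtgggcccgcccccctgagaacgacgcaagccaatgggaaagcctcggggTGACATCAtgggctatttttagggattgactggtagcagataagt
Atf3, chr1:191183334-191183583, minus strand: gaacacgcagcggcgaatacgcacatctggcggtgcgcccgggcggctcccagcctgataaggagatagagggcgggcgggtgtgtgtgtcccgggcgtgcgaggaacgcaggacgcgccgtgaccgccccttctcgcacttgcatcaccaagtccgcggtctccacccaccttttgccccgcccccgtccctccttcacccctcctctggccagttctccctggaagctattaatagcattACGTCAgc

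The Fos window held TGACGT from 66 to 61 bases before the start and TATAAA from 33 to 28. The Jun window held TGACATCA from 45 to 38 bases before the start. The Atf3 window held TGACGT on the opposite strand, 8 to 3 bases before the start, where it reads ACGTCA. No searched letters were found in the windows of Junb, Fosl2 or Fosb, which says only that these letters are not in these windows. The start that the table gives for Jund may be an alternative one, so its window, in which no searched letters were found either, is not read here. Of 32851 windows of the same length in the table, 6.47% held TGACGT, 2.93% TGACATCA, 4.46% TGACTCA, 1.47% a CArG box and 7.59% TATAAA. Neither TGACTCA nor a CArG box was found in the windows of the other 6 matched members, Fos among them. This too says only that these letters are not in these windows. Bases further from the start were not searched, so a CArG box of Fos or another member could lie there.

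Values are FPKM, fragments scaled by transcript length and library depth, which allows levels of different genes to be set side by side. Depth, estimated from the lowest steps of these values, was 17800000 to 19500000 fragments in icKO and 17200000 to 20600000 in flox libraries. Rhoa was at 34.4 ± 1.75 FPKM in icKO and 37.9 ± 1.24 FPKM in flox nerves (SD, n = 3 each), a difference that did not pass (limma, Benjamini-Hochberg adjusted p = 0.195), and Chat was listed at 0 in all icKO libraries and at no more than 0.0123 FPKM in flox libraries. Of 6 motoneuron markers, Chat among them, 2 passed the filter, the filament genes Nefh and Prph. Both rose, as did 20.8% of all tested genes. Nefh (neurofilament) rose to 11.1 ± 2.04 FPKM in icKO nerves, against 3.02 ± 0.52 FPKM in flox nerves (SD, n = 3 each, limma, Benjamini-Hochberg adjusted p = 0.000888). Prph (peripherin) rose to 4.51 ± 0.61 FPKM, against 3.43 ± 0.19 FPKM (adjusted p = 0.0458). The other markers, Chat, Slc18a3, Isl1 and Mnx1, were at 0.0435 FPKM or less in every library, so no change in them could be read. Of 10 tested Schwann cell markers 1 rose, 3 fell and 6 did not pass. The 15 skeletal muscle markers summed to 12.9, 27.2 and 1616 FPKM in icKO 1, 2 and 3, against 1416, 277 and 375 FPKM in flox 1, 2 and 3, and 1 of the 14 tested fell. Neutrophil markers, none of which passed the filter, summed to 1.02, 0.44 and 9.20 FPKM in icKO 1, 2 and 3 and to 0.0835 to 0.507 FPKM in flox libraries, where 3 to 6 of the 7 were at 0. All 8 adipocyte markers fell, none of 10 tested macrophage markers passed, and 1 rose and 4 fell of 10 fibroblast and perineurial, 1 and 3 of 8 endothelial and 0 and 3 of 7 mural cell markers. These counts, like those of the Schwann cell and muscle markers, stand beside 20.8% rising and 22.1% falling among all tested genes. In a lysate, fewer cells of a type and less RNA per cell cannot be told apart. Flox 2 held Xist at 46.1 FPKM and no Ddx3y, while the other 5 libraries had Xist at 0.0282 FPKM or less and Ddx3y at 12.5 to 16.1 FPKM, which makes flox 2 the female library.

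Fosl2, the gene of Fra-2, a Fos protein that lacks the strong activating region of c-Fos, was at 19.6, 26.0 and 21.1 FPKM in icKO 1, 2 and 3, against 3.43, 4.47 and 3.74 FPKM in flox 1, 2 and 3. The lowest icKO library was 4.38 times the highest flox library, and the 3 icKO libraries lay within 1.32-fold of each other. The mean rose to 22.2 ± 3.33 FPKM in icKO nerves, against 3.88 ± 0.53 FPKM in flox nerves (SD, n = 3 each), higher by 2.25 in log2(FPKM + 1) (SE 0.13, limma, Benjamini-Hochberg adjusted p = 0.000326). It was the 34th largest rise among all tested genes on that scale. The difference stayed between 2.13 and 2.51 under all 19 alternatives tried.

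Fos, the gene of c-Fos, was at 15.9, 6.01 and 35.7 FPKM in icKO 1, 2 and 3, against 3.44, 5.05 and 3.44 FPKM in flox 1, 2 and 3. The groups did not overlap. Of all tested genes 57.2% had groups that did not overlap, and 28.4% had every icKO library above every flox library. Even so, icKO 2 was only 1.19 times flox 2 while icKO 3 was 10.4 times the lowest flox library. The mean rose to 19.2 ± 15.1 FPKM in icKO nerves, against 3.98 ± 0.93 FPKM in flox nerves (SD, n = 3 each). On the log2(FPKM + 1) scale it was higher by 1.73 (SE 0.55), with an adjusted p of 0.0418 (limma, Benjamini-Hochberg). Leaving out icKO 2 gave 2.34 with an adjusted p of 0.00707, and without icKO 3 it was 1.15 with an adjusted p of 0.0552. Fos did not pass when icKO 1 or any of the flox libraries was left out either (limma adjusted p = 0.0729 to 0.109).

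Fosb, the gene of FosB and of the stable variant ΔFosB, was at 1.93, 0.644 and 2.36 FPKM in icKO 1, 2 and 3, against 0.24, 0.508 and 0.424 FPKM in flox 1, 2 and 3. It followed Fos in order, with icKO 2 close to the flox libraries and icKO 3 highest. On the length of its longest annotated transcript these levels are about 46.3 to 174 fragments in icKO and 15.6 to 39.6 fragments in flox libraries. The rise by 0.87 in log2(FPKM + 1) (SE 0.27, limma, Benjamini-Hochberg adjusted p = 0.0386) understates the change of so low a gene, and with a pseudocount of 0.01 it was 1.92. It passed without icKO 2 (adjusted p = 0.00418), did not pass without flox 1, 2 or 3 (adjusted p = 0.0737 to 0.0999), and was under the filter without icKO 1 or icKO 3.

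Fosl1, the gene of Fra-1, was at 0.0931, 0.0255 and 0.175 FPKM in icKO 1, 2 and 3, against 0.128, 0.0657 and 0.0805 FPKM in flox 1, 2 and 3. These correspond to about 0.9 to 6.4 fragments in icKO and 2.5 to 4.1 fragments in flox libraries, so that a difference was not detectable at this depth.

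Junb, which encodes a Jun protein that activates AP-1 sites more weakly than c-Jun, was at 21.4, 12.6 and 49.8 FPKM in icKO 1, 2 and 3, against 4.01, 5.79 and 4.02 FPKM in flox 1, 2 and 3. All 9 pairs of an icKO with a flox library had icKO higher, by 2.17 to 12.4 times. The mean rose to 27.9 ± 19.4 FPKM in icKO nerves, against 4.61 ± 1.03 FPKM in flox nerves (SD, n = 3 each), higher by 2.17 in log2(FPKM + 1) (SE 0.45, limma, Benjamini-Hochberg adjusted p = 0.00942). Without icKO 3 the difference was 1.65 (adjusted p = 0.00565) and without icKO 2 it was 2.60 (adjusted p = 0.00593).

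Jund, the most abundant member, was at 139, 112 and 149 FPKM in icKO 1, 2 and 3, against 84.2, 98.5 and 83.8 FPKM in flox 1, 2 and 3. The groups did not overlap, although icKO 2 was only 1.13 times flox 2. The mean rose to 133 ± 19.4 FPKM in icKO nerves, against 88.9 ± 8.38 FPKM in flox nerves (SD, n = 3 each), 1.5-fold or 0.57 on the log2(FPKM + 1) scale (SE 0.13, limma, Benjamini-Hochberg adjusted p = 0.014). Leaving out flox 3 gave an adjusted p of 0.0534, and leaving out icKO 3 together with flox 1, the muscle-rich libraries, an adjusted p of 0.0727.

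Jun, the gene of c-Jun, was at 17.7, 10.99 and 29.1 FPKM in icKO 1, 2 and 3, against 15.3, 18.6 and 14.2 FPKM in flox 1, 2 and 3. The icKO libraries lay on both sides of the flox libraries, with icKO 2 below all of them and icKO 3 above. The means were 19.2 ± 9.15 FPKM in icKO and 16.04 ± 2.31 FPKM in flox nerves (SD, n = 3 each), which differed by 0.16 in log2(FPKM + 1) and did not pass (95% interval -0.59 to 0.91, limma, Benjamini-Hochberg adjusted p = 0.712). Its sign turned without icKO 3, at -0.18.

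Atf3, an injury-induced partner of c-Jun, had the same order of libraries as Jun at a lower level, 6.64, 4.75 and 10.8 FPKM in icKO 1, 2 and 3, against 5.96, 6.98 and 5.54 FPKM in flox 1, 2 and 3. It differed by 0.17 in log2(FPKM + 1) and did not pass (95% interval -0.43 to 0.77, limma, Benjamini-Hochberg adjusted p = 0.613), and it was -0.11 without icKO 3. For both genes the interval includes rises of the size measured for Jund, so a p over the threshold does not show equal levels.

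**Figure D2:**
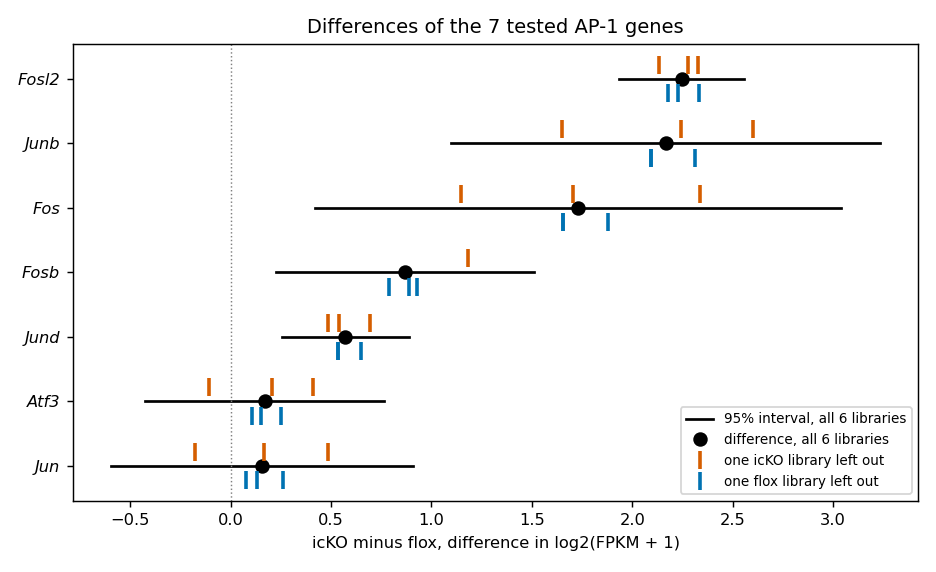
Difference in log2(FPKM + 1), icKO minus flox (horizontal axis), of the 7 tested AP-1 genes, with a point and a 95% interval from limma on all 6 libraries and ticks for the fits that leave out a single icKO (orange) or flox (blue) library. The ticks of Fosl2 stay between 2.13 and 2.33, those of Fos range from 1.15 to 2.34, and those of Jun and Atf3 lie on both sides of 0.

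By mean level the members ranked differently in the groups. In icKO nerves Jund (133 FPKM) was followed by Junb (27.9 FPKM), Fosl2 (22.2 FPKM), Jun (19.2 FPKM) and Fos (19.2 FPKM), whose libraries overlapped each other, then by Atf3 (7.38 FPKM), which still overlapped Fos, and by Fosb (1.65 FPKM) and Fosl1. In flox nerves Jund (88.9 FPKM) was followed by Jun (16.04 FPKM) and Atf3 (6.16 FPKM), then by Junb (4.61 FPKM), Fos (3.98 FPKM) and Fosl2 (3.88 FPKM), whose libraries overlapped, and by Fosb (0.391 FPKM) and Fosl1. Atf3 and Junb overlapped in flox libraries as well, with Junb of flox 2 between the Atf3 values.

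The members also shared an order of libraries. In 6 of the 7 tested members, all but Fosl2, icKO 2 was lowest and icKO 3 highest of the icKO libraries, an order held by 24.8% of all tested genes. Flox 2 was the highest flox library in all 7 tested members and in 39.4% of all tested genes. These counts were the same after scaling to a common sum or by median of ratios. Flox 2 was also the female library, so in its rank sex cannot be told apart from other traits of that library. Within icKO the SD of log2(FPKM + 1) was 1.19 for Fos, 0.96 for Junb, 0.66 for Jun, 0.55 for Fosb and 0.52 for Atf3, wider than in at least 95.8% of the tested genes, while it was 0.22 for Jund and, at percentile 68.4, 0.20 for Fosl2. Within flox the SDs were 0.13 to 0.26, between percentiles 64.4 and 87.0. The library with the highest immediate early members, icKO 3, was also the one with the most muscle and neutrophil transcript in its group (marker sums of 1616 and 9.20 FPKM, against no more than 27.2 and 1.02 FPKM in icKO 1 and 2). With the muscle level as a covariate Fos was higher by 2.23 and Junb by 2.62 (limma, Benjamini-Hochberg adjusted p = 0.018 and 0.0051). Without icKO 3 and flox 1, the muscle-rich libraries, Fos was higher by 1.07 and did not pass (adjusted p = 0.117), while Junb was higher by 1.58 (adjusted p = 0.016). The part of neutrophil RNA in these levels was not tested.

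The make-up of the Fos family differed between icKO libraries. The 4 Fos family genes summed to 37.5, 32.6 and 59.3 FPKM in icKO 1, 2 and 3, against 7.24, 10.1 and 7.68 FPKM in flox 1, 2 and 3. Of that sum Fosl2 made up 52.2%, 79.5% and 35.6% in icKO 1, 2 and 3, against 44.3% to 48.7% in flox libraries. Fosl2 was thus 4.32 times Fos in icKO 2 and 0.592 times Fos in icKO 3, while the ratio was 0.884 to 1.09 in flox libraries. Shares of FPKM within a library do not change with its scaling. The 3 Jun family genes summed to 178, 135 and 228 FPKM in icKO 1, 2 and 3, against 103.5, 123 and 102.0 FPKM in flox 1, 2 and 3.

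Within the Jun family the share of Junb was higher in every icKO library than in any flox library. Junb made up 12.0%, 9.29% and 21.8% of the Jun family sum in icKO 1, 2 and 3, against 3.87% to 4.71% in flox libraries. The Jun share was 8.12% to 12.7% in icKO and 13.9% to 15.2% in flox libraries, and Jund kept the major part, at 65.5% to 82.6% in icKO and 80.1% to 82.2% in flox libraries. Junb was 1.14 to 1.71 times Jun in icKO libraries and 0.261 to 0.311 times Jun in flox libraries, so the order of these neighbours was opposite in the groups. The Jun family sum was 3.85 to 4.74 times the Fos family sum in icKO and 12.2 to 14.3 times in flox libraries. The ranges of this ratio did not overlap.

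**Figure D3:**
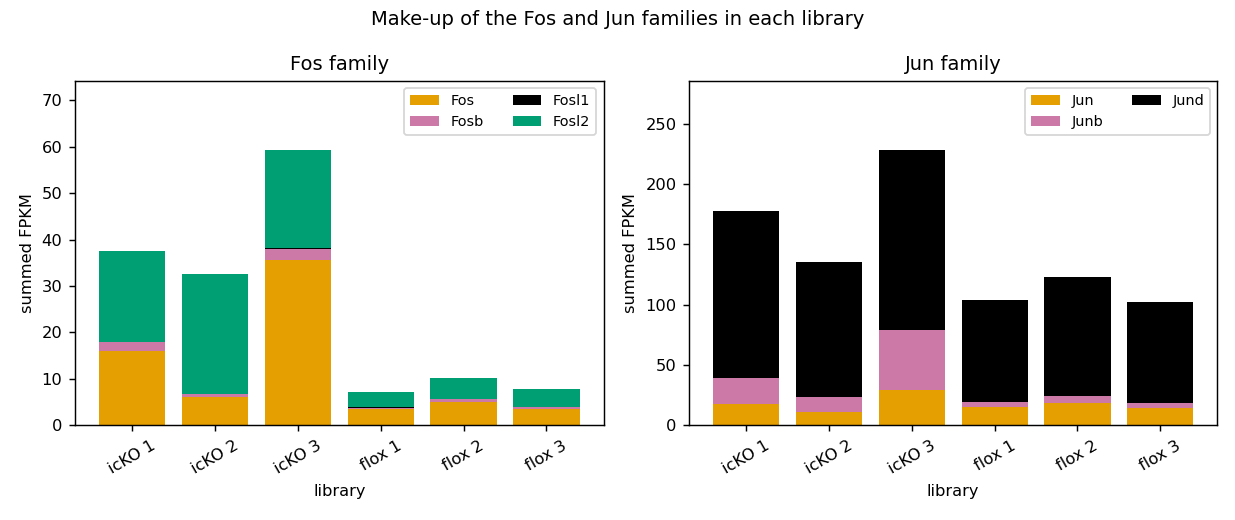
Summed FPKM (vertical axes, from 0) of the Fos family (left) and the Jun family (right) in each of the 3 icKO and 3 flox libraries, stacked by gene. The Fos family sum is 32.6 to 59.3 FPKM in icKO and 7.24 to 10.1 FPKM in flox libraries, and icKO 2 consists mostly of Fosl2 (79.5%).

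Other immediate early genes rose in part with the AP-1 members. Of 30 tested genes of a list of such genes outside AP-1, 21 rose, none fell and 9 did not pass. Among all tested genes 20.8% rose and 22.1% fell. Under 6 of the 19 alternatives, median-of-ratios and quantile scaling among them, 1 gene of the list fell. The median difference of the list was 0.82 in log2(FPKM + 1), against -0.01 over all tested genes. When single libraries were left out, 15 to 20 genes of the list passed. Of the 21, Nr4a3 reached the filter only through the icKO group. The list held Zfp36, which encodes a protein that speeds the decay of Fos and cytokine mRNA, and it rose to 30.3 ± 5.87 FPKM in icKO nerves, against 7.76 ± 0.43 FPKM in flox nerves (SD, n = 3 each, limma, Benjamini-Hochberg adjusted p = 0.00058). Dusp1, a phosphatase of MAP kinases, was at 12.4, 12.5 and 16.8 FPKM in icKO 1, 2 and 3, against 4.25, 5.16 and 5.63 FPKM in flox 1, 2 and 3 (adjusted p = 0.00119). Gadd45g, a stress gene, rose to 10.5 ± 1.501 FPKM in icKO nerves, against 4.03 ± 0.28 FPKM in flox nerves (adjusted p = 0.000827), and the nuclear receptor gene Nr4a3 to 1.70 ± 0.28 FPKM, against 0.321 ± 0.040 FPKM (adjusted p = 0.00126).

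The zinc finger gene Egr1, often induced together with Fos, did not pass, and its values were chosen for display after they were seen. It was at 7.66, 1.87 and 21.5 FPKM in icKO 1, 2 and 3, against 1.90, 5.31 and 4.98 FPKM in flox 1, 2 and 3. It shared with Fos the order of the icKO libraries, and icKO 2 lay below all flox libraries. Over the list, 18 of the 30 tested genes had icKO 2 lowest and icKO 3 highest, as had 24.8% of all tested genes. The genes that did not pass were Egr1, Egr2, Egr3, Ier2, Ier3, Ier5, Dusp5, Arc and Rhob.

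**Figure D4:**
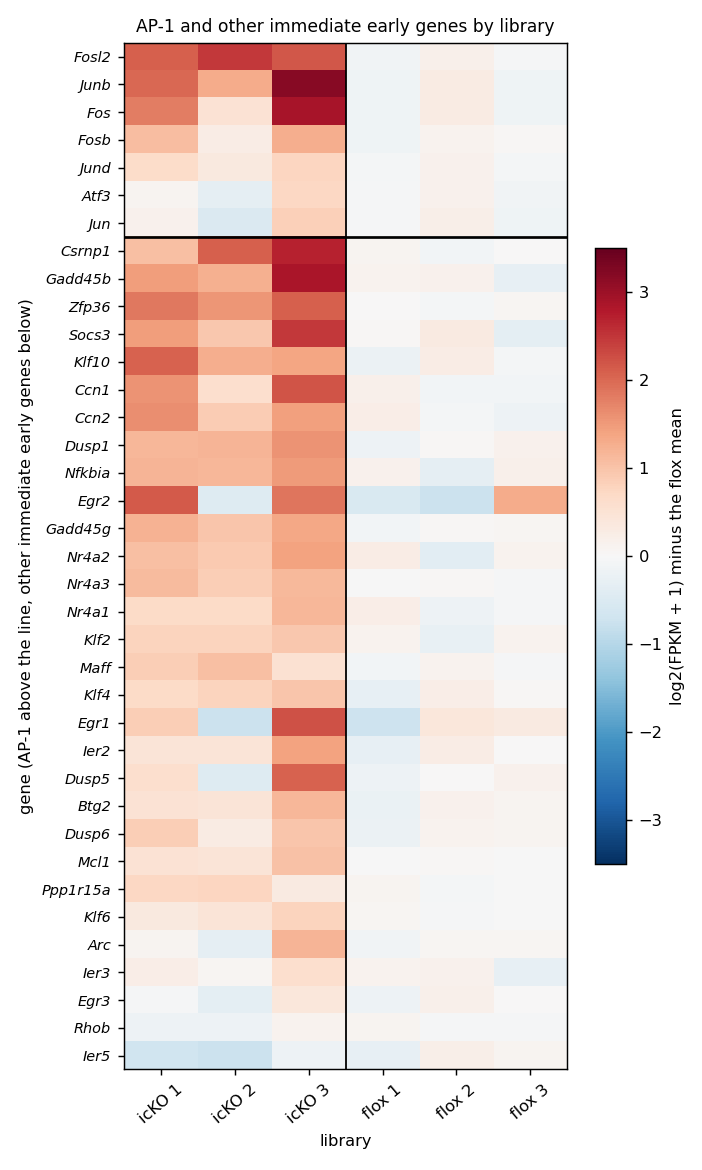
Level of the 7 tested AP-1 genes (above the line) and the 30 tested other immediate early genes (below), as log2(FPKM + 1) minus the flox mean of the gene (colour), in the 3 icKO and 3 flox libraries (columns). Fosl2 is even across the icKO libraries, while Junb and Fos are strongest in icKO 3 and weakest in icKO 2. That icKO order is shared by 18 of the 30 other immediate early genes and by 24.8% of all tested genes.

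Factors of the same protein class were called in both directions, 7 of 18, where 42.9% of all tested genes were called, so the count does not set this list apart. That percentage also stands beside the counts of the pathway lists that follow. Of the 18 tested partners and relatives of AP-1 with a basic leucine zipper, 5 rose (Jdp2, Cebpb, Cebpd, Maff and Mafk), 2 fell (Maf and Nfe2l2) and 11 did not pass, with a median difference of 0.10. Jdp2, which pairs with Jun proteins and represses AP-1 sites, rose to 28.4 ± 1.09 FPKM in icKO nerves, against 15.96 ± 0.79 FPKM in flox nerves (SD, n = 3 each, limma, Benjamini-Hochberg adjusted p = 0.000826). Mafk, a small Maf protein without an activating region, rose to 16.2 ± 0.66 FPKM, against 7.16 ± 0.86 FPKM in flox nerves (adjusted p = 0.000752). Maf, a large Maf protein, fell to 19.9 ± 1.86 FPKM in icKO nerves, against 40.6 ± 1.70 FPKM in flox nerves (adjusted p = 0.000765). Cebpd was at 30.1, 24.9 and 44.3 FPKM in icKO 1, 2 and 3, against 7.48, 7.56 and 8.86 FPKM in flox 1, 2 and 3 (adjusted p = 0.00112), with the same icKO order as Fos.

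Upstream of AP-1, a list of kinases that act on Jun and Fos proteins or their regulators, and of kinase scaffolds, held 19 tested genes. Of these 4 rose and 2 fell, with a median difference of 0.04. The genes of the JNK branch, which phosphorylates c-Jun, included Mapk8 (JNK1), which rose to 2.68 ± 0.15 FPKM in icKO nerves, against 1.59 ± 0.14 FPKM in flox nerves (SD, n = 3 each, limma, Benjamini-Hochberg adjusted p = 0.00522). Its activating kinase gene Map2k4 rose to 13.3 ± 0.97 FPKM, against 9.15 ± 0.20 FPKM in flox nerves (adjusted p = 0.00417). Mapk3 (ERK1), of the branch that induces Fos, fell to 160 ± 31.3 FPKM in icKO nerves, against 291 ± 21.2 FPKM in flox nerves (adjusted p = 0.00545), and Rps6ka1, an ERK-activated kinase, rose to 6.31 ± 0.18 FPKM, against 3.80 ± 0.63 FPKM (adjusted p = 0.00565). Mapk9 also rose and Map2k1 also fell.

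Of the 6 genes of SRF, which takes part in inducing Fos, its MRTF coactivators and the ternary complex factors, only Elk4 passed. It rose to 10.8 ± 2.02 FPKM in icKO nerves, against 5.42 ± 0.17 FPKM in flox nerves (SD, n = 3 each, limma, Benjamini-Hochberg adjusted p = 0.00295). The median difference of this list was -0.08, and Mrtfb, Elk1 and Mrtfa had adjusted p-values of 0.102, 0.153 and 0.306. Of 7 genes for the turnover of AP-1 proteins 1 rose and 1 fell. Det1, part of the ligase complex that marks c-Jun, fell (adjusted p = 0.0291), while Itch and Fbxw7, ligases for Jun proteins, had adjusted p-values of 0.0896 and 0.334. The median of that list was 0.08.

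Genes tied to injured Schwann cells were called in both directions, as were all tested genes (20.8% rose and 22.1% fell). Of 8 tested genes that c-Jun raises in injured Schwann cells or that mark them, 3 rose (Sox2, Gfap and Gap43), 1 fell and 4 did not pass, with a median difference of -0.01, and 6 of the 14 were under the filter. Gfap, an intermediate filament of nonmyelinating and injured Schwann cells, was at 13.7, 7.77 and 24.9 FPKM in icKO 1, 2 and 3, against 2.53, 2.92 and 2.48 FPKM in flox 1, 2 and 3 (limma, Benjamini-Hochberg adjusted p = 0.00521). Sox2, a factor of immature Schwann cells, rose to 8.99 ± 1.22 FPKM in icKO nerves, against 3.87 ± 0.38 FPKM in flox nerves (SD, n = 3 each, adjusted p = 0.0012), and the growth cone gene Gap43 to 2.004 ± 0.091 FPKM, against 1.35 ± 0.28 FPKM (adjusted p = 0.0424).

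Of 14 tested classic AP-1 target genes none rose, 3 fell (Spp1, Fn1 and Hmox1) and 11 did not pass, the median difference being -0.19. The list held 20 genes, and the untested ones were under the filter, so these counts do not cover them. Among all tested genes 20.8% rose and 22.1% fell. Spp1, the osteopontin gene, was at 47.6, 43.7 and 28.5 FPKM in icKO 1, 2 and 3, against 189.6, 198 and 138 FPKM in flox 1, 2 and 3 (limma, Benjamini-Hochberg adjusted p = 0.00102). Fn1, the fibronectin gene, fell to 8.55 ± 2.69 FPKM in icKO nerves, against 49.6 ± 15.7 FPKM in flox nerves (SD, n = 3 each, adjusted p = 0.00158). Hmox1, the heme oxygenase gene, fell to 18.2 ± 4.49 FPKM, against 26.2 ± 1.87 FPKM in flox nerves (adjusted p = 0.0427). Ccnd1, the cyclin D1 gene, was at 14.3 ± 6.86 FPKM in icKO and 26.5 ± 4.65 FPKM in flox nerves and did not pass (adjusted p = 0.0553). The 10 fibroblast and perineurial markers summed to 935 to 966 FPKM in icKO and 1090 to 1988 FPKM in flox libraries, and their part in the level of Fn1 was not tested.

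The genes with the most similar profile over the 6 libraries were looked up among 6880 other genes that averaged 5 FPKM or more, as a description by Pearson's r of log2(FPKM + 1), which does not weigh the size of a change. For Junb the closest was Gfap (r = 0.995), followed by Asb6 (r = 0.994) and Wdr5 (r = 0.993). For Fos they were Csnk1a1 (r = 0.997), Cttn (r = 0.992) and Lamb1 (r = 0.991), all of which differed far less, with Csnk1a1 at 23.1 to 30.6 FPKM in icKO and 21.1 to 21.96 FPKM in flox libraries. For Fosb they were Dync1li1 (r = 0.996), Dusp6 (r = 0.990) and Sel1l (r = 0.989). For Fosl2, whose profile is close to a plain step between the groups, 770 genes had r over 0.95, led by Nudt21 (r = 0.999), Ice1 (r = 0.999) and Man2c1 (r = 0.998), while for Fos 77 and for Junb 167 did. For Jund they were Cherp (r = 0.995), Grb2 (r = 0.992) and Lsm14b (r = 0.989). Jun was closest to Ywhaz (r = 0.980), Csf1 (r = 0.972) and Glrx5 (r = 0.967), and Atf3 to Csf1 (r = 0.976), Glrx5 (r = 0.975) and Dlc1 (r = 0.972), so that Jun and Atf3 shared Csf1 and Glrx5 among their closest genes, with 12 and 10 genes over 0.95.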

How the data were processed

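FPKM values of 55335 Ensembl gene IDs in 6 libraries were deposited by the authors in 1 table. Build GRCm39, STAR, DESeq2 1.16.1, StringTie 1.3.1c and FastQC 0.11.2 are named in the submitters' processing notes, with no role for each. Annotation release and strand handling: not given in the sources used here. Symbols came from GENCODE M21 (55154 IDs matched), which is on another build and was used for symbols and transcript lengths only. The table holds no counts, so depth was estimated from the most frequent product of FPKM under 0.3 and transcript length between 35 and 80 in the 34186 genes with 1 transcript, read as 1 fragment.

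Each gene with a mean of at least 1 FPKM was tested in R 4.3.3 with limma 3.58.1, on log2(FPKM + 1), two-sided, with a variance trend and no covariate, adjusted by Benjamini-Hochberg over 12860 genes and called at an adjusted p under 0.05. This scale understates changes of low genes. The procedure was tested on simulated data in which few genes changed and both groups had the same spread. In these data many genes were called and members such as Fos spread more widely in icKO, so that test does not cover them. Of 229 list entries 224 matched; 5 were older names of genes listed under their present symbols. Named genes are the 8 members, the up to 4 genes of each pathway list with the smallest p, the 3 closest profiles of each member, Rhoa and Chat; any other is given among the calls of its list or as a marker, and some genes of the lists are counted but not reported here. The members and lists were chosen with earlier results of these data known. The lists share Maff and Dusp1. The alternatives changed the pseudocount (0.1 or 0.01), the filter (none, or 5 FPKM), the scaling (TPM, quantile or median-of-ratios) or the limma settings (no trend, array weights, robust), added a replicate block or the muscle level as a covariate, or left out libraries.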

Additional observations from a re-analysis of the deposited data

How the results depend on the processing

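Fosl2 and Junb passed under all 19 alternatives (limma, Benjamini-Hochberg adjusted p = 0.000206 to 0.00475 and 0.00315 to 0.0355) and Jund under 17, while Fos lost its call under 9 of 19 and Fosb under 5 of the 15 in which it passed the filter. The count of members that rose, 5 of 7 tested, was 3 without a filter, 3 with the replicate block, 2 without the muscle-rich pair (icKO 3 and flox 1) and 2 to 5 when single libraries were left out. It was 4 with the filter at 5 FPKM or robust estimation, and 5 with both other pseudocounts, all 3 scalings, no trend, array weights or the muscle covariate. The differences of Jun and Atf3, which never passed, turned to -0.21 and -0.12 without the muscle-rich pair, and were -0.18 to 0.48 and -0.11 to 0.41 when single libraries were left out. Over all genes 5516 were called, 3308 with the filter at 5 FPKM, where 6888 genes were tested, and 3728 to 5476 when single libraries were left out. The count of other immediate early genes, 21, was 15 to 20 in those fits and 18 to 23 under the other alternatives, with at most 1 gene lower. No scaling moved the median of all genes by more than 0.021. Same-numbered icKO and flox libraries did not deviate together (correlations of -0.103, 0.0434 and -0.0546 over 12860 genes). Differently numbered ones had correlations of -0.0708 to 0.108. The labels do not say whether the numbers pair the libraries, and correlations from so few libraries cannot decide it. With the replicate block 3 members and 4596 genes were called. Fosl1 and the low values of Fosb are limited by depth.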

Other observations

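Genes of the glucocorticoid receptor, a factor known to act on AP-1 by binding it, had another order of libraries than Fos. Of 11 genes of the receptor and its targets, 9 rose and 2 fell, the receptor gene Nr3c1 and the chaperone gene Fkbp4, with a median difference of 1.90 on the log2(FPKM + 1) scale (limma, Benjamini-Hochberg adjusted p under 0.05 each). The shares over all tested genes were 20.8% rising and 22.1% falling. Fkbp5, a feedback chaperone of the receptor, was at 21.1, 24.6 and 19.7 FPKM in icKO 1, 2 and 3, against 3.60, 2.21 and 3.24 FPKM in flox 1, 2 and 3 (adjusted p = 0.000364). Klf9 rose to 119 ± 7.01 FPKM in icKO nerves, against 26.3 ± 6.83 FPKM in flox nerves (SD, n = 3 each, adjusted p = 0.0006), Zbtb16 to 8.90 ± 1.56 FPKM, against 1.45 ± 0.47 FPKM (adjusted p = 0.000652), and Cdkn1a to 241 ± 6.55 FPKM, against 136 ± 10.6 FPKM (adjusted p = 0.00107). Of the 11 genes only Sgk1 had icKO 2 lowest and icKO 3 highest, an order held by 24.8% of all tested genes. In none of the 11 was flox 2 the highest flox library, as it was in 39.4% of all tested genes. Fkbp5, Klf9, Zbtb16 and Cdkn1a had their highest icKO value in icKO 2, as did Fosl2. So had Tsc22d3, Per1 and Errfi1, which also rose, and Nr3c1, which fell. Flox 2 was the highest flox library for Fosl2 and for none of these receptor and target genes. Only the remaining genes of the 11 differed, with Sgk1 and Dusp1 highest in icKO 3 and Fkbp4 in icKO 1. The icKO libraries lay within 1.11-fold for Klf9 and 1.055-fold for Cdkn1a. How many of all tested genes had icKO 2 highest was not counted, and a link of these genes to Fosl2 was not tested.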
